A study of Mus with 18 samples.

Results

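The matrix metalloproteinases (MMPs) and their tissue inhibitors (TIMPs) were followed as 10 genes picked by name, 7 MMPs (Mmp2, Mmp3, Mmp9, Mmp10, Mmp12, Mmp13 and Mmp14) and 3 TIMPs (Timp1, Timp2 and Timp3), out of 55416 gene IDs counted. In mouse lens epithelial cells (LECs), RNA was sequenced as 18 libraries that fall into 6 groups of 3. Wild type (WT), Egr1KO and FosBcKO LECs were each taken at 0 h and at 6 h post cataract surgery (PCS), the surgical removal of the lens fiber mass that leaves the capsule with its LECs in the eye. Each library pooled 5 lens capsules. The study asked how LECs respond to this injury and which part of the response depends on the immediate early transcription factors Egr1 and FosB.

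All groups shared an age of 3 to 5 months, the strain label C57BL/6 and the operation itself. In each mouse one eye was operated first and the other 6 h later, and both capsules were harvested together, so the 0 h capsules came from mice whose other eye had been injured for 6 h. The WT libraries are labelled wildtype, and whether these mice carried a floxed allele or a cre transgene is not given in the sources used here. Egr1KO mice lacked Egr1 in the whole body, through a neo cassette inserted in exon 2, and the stock named in the study's methods has a mixed 129 and B6N background. FosBcKO mice carried a Fosb allele with exons 2 and 3 floxed and the MLR10 cre transgene, driven by a modified alpha-A crystallin promoter that is active in the lens. Other cells on the capsule thus kept Fosb in FosBcKO mice, whereas they lacked Egr1 in Egr1KO mice.

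MMPs are zinc-dependent proteases that cut collagens, laminin, elastin and other matrix proteins, and most are secreted as inactive proenzymes that another protease has to cut. Mmp14 (MT1-MMP) sits in the plasma membrane and activates proMmp2 with Timp2 as the bridge between them, while the secreted stromelysins Mmp3 and Mmp10 activate other proMMPs. TIMPs bind the active site of MMPs. Timp1 is soluble and inhibits Mmp14 poorly, Timp2 is soluble, and Timp3 binds to the matrix and also inhibits several ADAM and ADAMTS proteases. In the lens, gelatinase activity (Mmp2 and Mmp9) is known from epithelial to mesenchymal transition and capsular opacification, and many MMP promoters hold AP-1 sites, to which Fos and Jun proteins bind.

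Levels are given in CPM, the read pairs of a gene per 1000000 read pairs counted in the library. Total gene counts ranged from 9609295 to 13871592 per library, so that 3 read pairs, the limit that a count of 0 allows, stood for 0.216 to 0.312 CPM, counting error only. Read pairs outside annotated genes made up 8.03% to 20.9% of all pairs at 0 h and 20.03% to 30.5% at 6 h, higher at 6 h in each genotype without overlap, and 19121 to 21139 gene IDs had a count at 0 h against 20336 to 25999 at 6 h. The part of this shift in the changes from 0 h to 6 h was not tested. Transcript lengths were not at hand, and levels are compared between libraries and not between genes. The Egr1 level in Egr1KO libraries at 6 h was 3339 ± 1196 CPM against 1704 ± 311 CPM in WT, and the Fosb level in FosBcKO was 1651 ± 192 CPM against 1075 ± 409 CPM (SD, n = 3 each). These counts take in exons outside the inserted or deleted part, so they do not check the genotype labels, and group names are those of the labels. The lens epithelial markers Foxe3, Pax6 and Prox1, those of the 8 listed that could be paired with an ID, had a summed level of 1621 to 1898 CPM at 0 h and of 511 to 1480 CPM at 6 h. At 6 h, Krt12, a keratin of the corneal epithelium, stood at 60.7 and 131 CPM in WT replicates 1 and 2 and at 91.1 and 198 CPM in FosBcKO replicates 1 and 3, and at most at 3.76 CPM in the other 5 libraries. Krt5, of the same list, was high in the same 4 libraries, at 36.4, 58.5, 43.8 and 101.4 CPM, and at most at 2.28 CPM in the other 5. The sum of the 3 of 5 corneal genes with an ID, most of it from Aldh3a1, moved otherwise. It was 833 to 1736 CPM at 0 h and 369 to 985 CPM at 6 h. In FosBcKO at 6 h, Aldh3a1 made up 241 of 376 CPM in replicate 1 and 686 of 985 CPM in replicate 3.

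By CPM across the 18 libraries, Timp3 was higher and Timp2 lower at 6 h PCS in every genotype without overlap. For Timp3 in WT the gap was narrow, with at most 736 CPM at 0 h and at least 741 CPM at 6 h. CPM carry no scaling beyond the library total, whereas the tests below do. Timp1 rose, and Mmp14 was highest by far in FosBcKO at 6 h. The low-abundance Mmp10, Mmp12 and Mmp13 had almost no read pairs at 0 h and were found at 6 h, most of them in Egr1KO. Mmp3 was close to absent except in 1 library. The levels of the inhibitors and of Mmp14 are plotted by library.

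**Figure D1:**
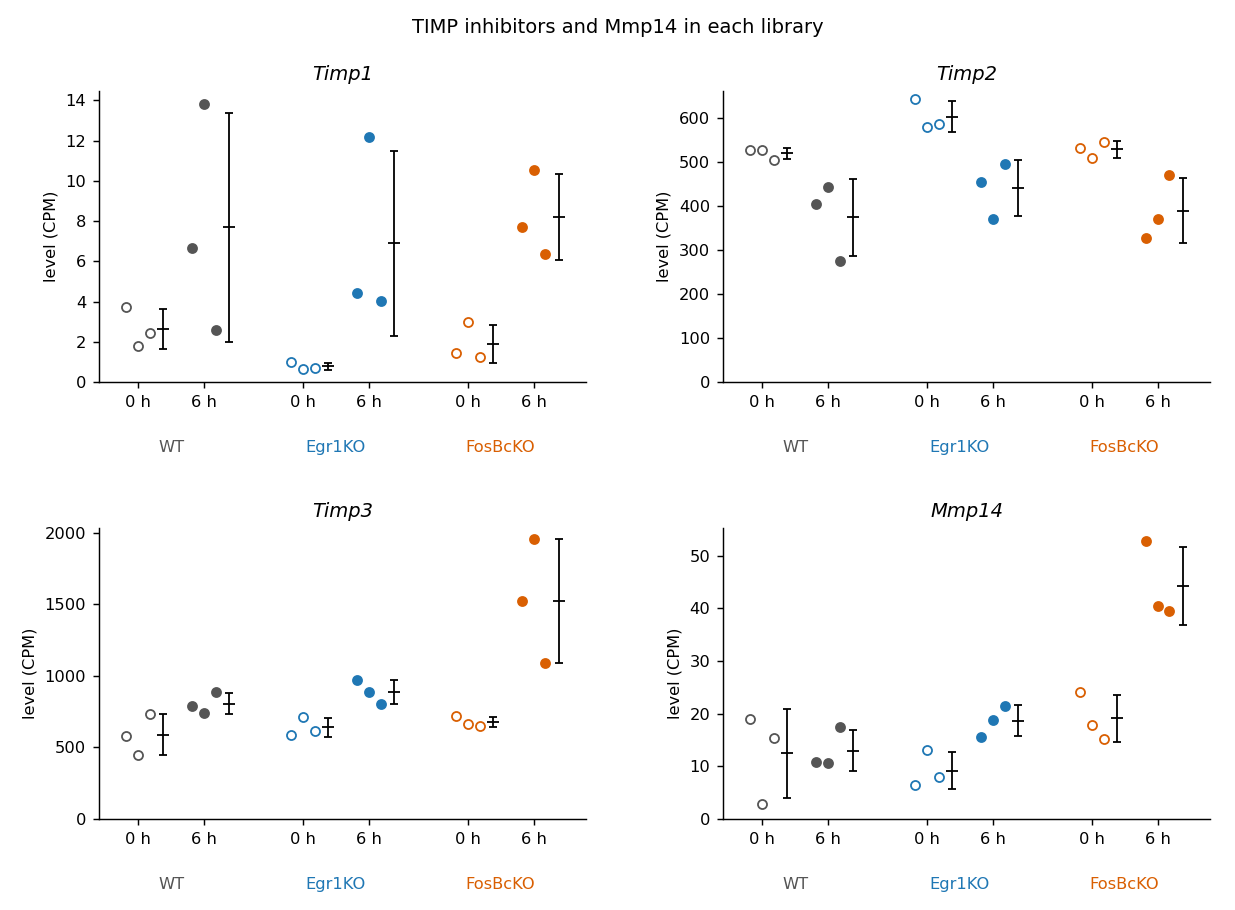
Levels of Timp1, Timp2, Timp3 and Mmp14 in CPM (vertical axes, each from 0) in the 18 libraries; open points are 0 h and filled points 6 h PCS, replicates 1 to 3 from left to right, with mean and SD (n = 3) beside them. All 9 libraries at 6 h lie above the 0 h libraries for Timp3 and below them for Timp2, and Mmp14 lies between 39.5 and 52.8 CPM in FosBcKO at 6 h, above all other libraries.

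Mmp14 (ENSMUSG00000000957), the membrane-bound activator, had levels of 19.1, 2.93 and 15.5 CPM in WT replicates 1 to 3 at 0 h and of 10.8, 10.6 and 17.5 CPM at 6 h. In Egr1KO it stood at 6.36, 13.1 and 8.01 CPM at 0 h and at 15.6, 18.9 and 21.5 CPM at 6 h. In FosBcKO it stood at 24.1, 17.9 and 15.2 CPM at 0 h and at 52.8, 40.5 and 39.5 CPM at 6 h. The 6 h libraries lay above the 0 h libraries in both knockouts, whereas in WT they lay inside the range of the 0 h libraries, where replicate 2 was low. By group mean the order was FosBcKO at 6 h, FosBcKO at 0 h, Egr1KO at 6 h, WT at 6 h, WT at 0 h and Egr1KO at 0 h, and only the first step of this order was free of overlap. The 6 h to 0 h log2 fold change was 1.21 with a standard error (SE) of 0.20 in FosBcKO (edgeR quasi-likelihood F-test, false discovery rate (FDR) 0.00502) and 1.09 with an SE of 0.30 in Egr1KO (FDR 0.0352). In WT it was -0.05 with an SE of 0.57 (FDR 0.955), and its sign turned when single libraries were left out. Its Egr1KO call was lost without Egr1KO 0 h replicate 1 (FDR 0.111), 0 h replicate 3 (0.137) or 6 h replicate 3 (0.123). One fit of all 18 libraries called it in neither knockout, with an FDR of 0.0728 in Egr1KO and 0.0623 in FosBcKO.

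Mmp2 (ENSMUSG00000031740) encodes gelatinase A, the proenzyme that Mmp14 activates. Its level was 13.8, 5.96 and 6.81 CPM in WT at 0 h and 7.26, 8.67 and 3.62 CPM at 6 h. In Egr1KO it was 3.10, 8.16 and 5.52 CPM at 0 h and 2.18, 3.53 and 3.11 CPM at 6 h, and in FosBcKO 12.3, 8.50 and 15.9 CPM at 0 h and 7.13, 9.94 and 6.88 CPM at 6 h. The group mean was lower at 6 h in each genotype, with overlap between the times in all 3, and all neighbours in the order of the 6 groups overlapped. No single genotype passed the test, with log2 fold changes of -0.52 in WT (SE 0.46, FDR 0.425), -0.87 in Egr1KO (SE 0.46, FDR 0.203) and -0.61 in FosBcKO (SE 0.33, FDR 0.201). In an edgeR quasi-likelihood fit of genotype and time over all 18 libraries, which gives 1 time effect over the 3 genotypes together, Mmp2 fell by 0.65 on the log2 scale (SE 0.24, FDR 0.0279), which is less than 2-fold.

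Mmp9 (ENSMUSG00000017737), gelatinase B, which neutrophils and macrophages also make, had 8, 0 and 14 read pairs in WT at 0 h and 21, 25 and 51 at 6 h. It had 7, 1 and 3 read pairs in Egr1KO at 0 h and 16, 24 and 7 at 6 h, and 13, 13 and 7 in FosBcKO at 0 h and 21, 9 and 11 at 6 h. In CPM the times were separate in WT and Egr1KO and overlapped in FosBcKO, and WT at 6 h, with 3.12 ± 1.53 CPM (SD, n = 3), lay above every other group without overlap. The log2 fold change was 2.02 in WT (FDR 0.140) and 0.14 in FosBcKO (FDR 0.904), and neither passed. Mmp9 rose over the 3 genotypes together by 1.38 on the log2 scale (SE 0.53, FDR 0.0358). This call was lost without any 1 of 8 libraries, of which the highest FDR, 0.0869, came without WT 6 h replicate 3.

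The other 4 MMPs lie close together in the genome. In the RefSeq gene table (assembly GRCm38.p6) Mmp13, Mmp12, Mmp1b, Mmp3, Mmp1a, Mmp10, Mmp8, Mmp27, Mmp20 and Mmp7 are 10 consecutive protein-coding genes of chromosome 9, and 4 of them are described here. Mmp3 and Mmp10 encode stromelysins, Mmp12 encodes the macrophage elastase and Mmp13 a collagenase that cuts fibrillar collagens. Their read pairs, and those of the gelatinases, are plotted by library.

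**Figure D2:**
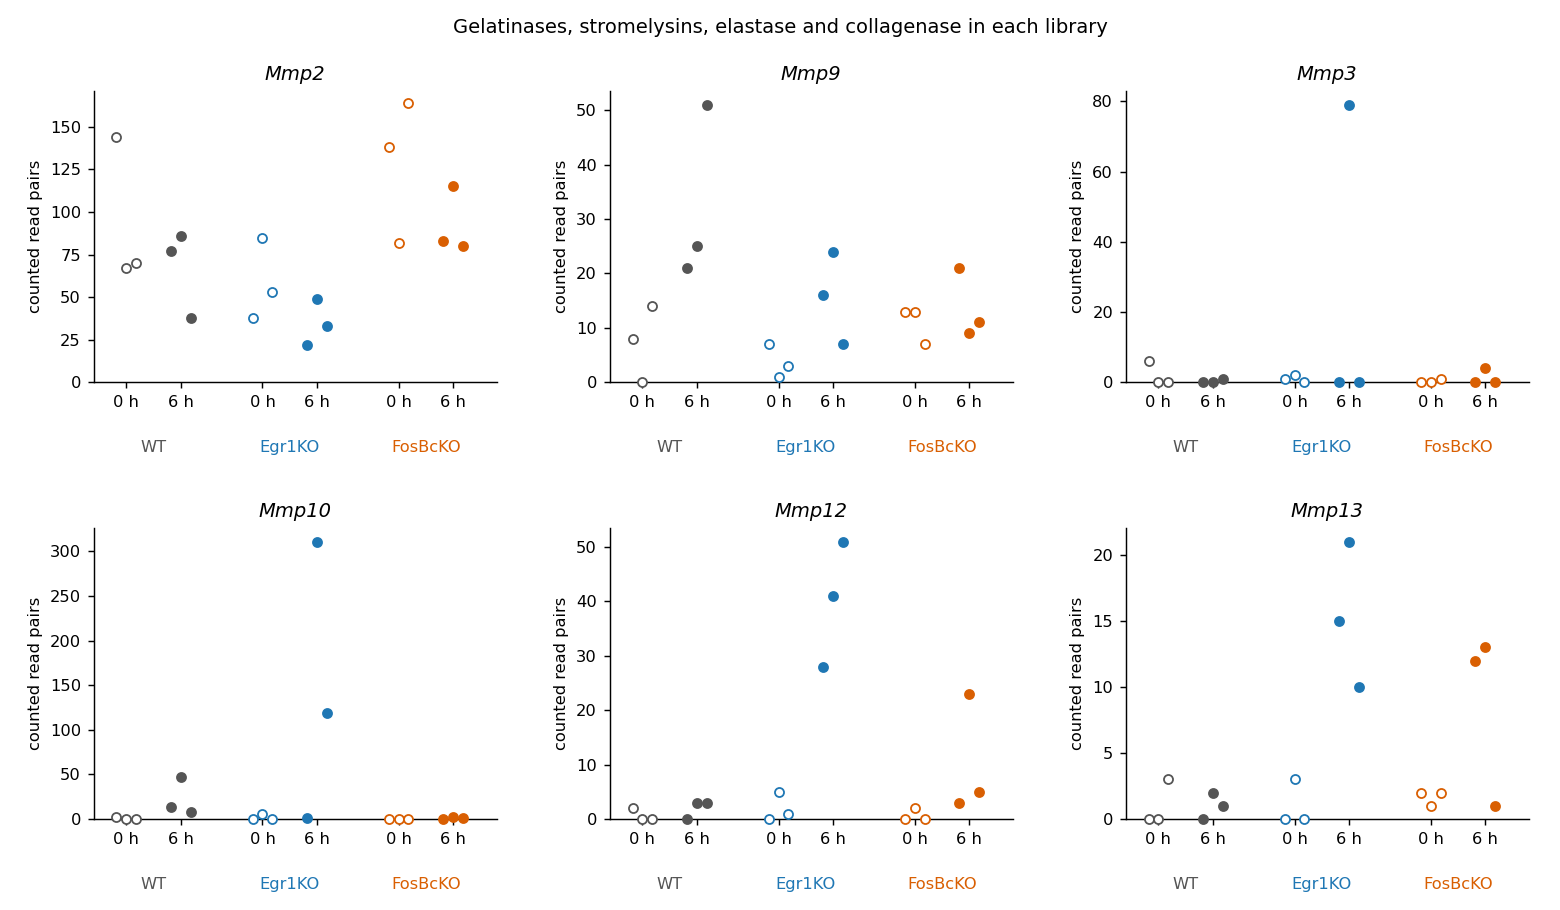
Counted read pairs per library (vertical axes, each from 0) of Mmp2, Mmp9, Mmp3, Mmp10, Mmp12 and Mmp13; open points are 0 h and filled points 6 h PCS, replicates 1 to 3 from left to right, colored by genotype. Mmp10 reaches 311 and Mmp3 reaches 79 read pairs in Egr1KO replicate 2 at 6 h, and Mmp12 has 28 to 51 read pairs in the Egr1KO libraries at 6 h.

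Mmp10 (ENSMUSG00000047562) had 2, 0 and 0 read pairs in WT at 0 h and 14, 47 and 8 at 6 h. It had 0, 6 and 0 read pairs in Egr1KO at 0 h and 1, 311 and 119 at 6 h. In FosBcKO no read pair was found at 0 h and 0, 2 and 1 at 6 h, at or under the limit that a count of 0 allows. The WT libraries at 6 h thus all lay above those at 0 h, the Egr1KO libraries at 6 h ranged from 1 read pair to the highest count of all, and the FosBcKO libraries stayed low. Replicate 2 held 72.2% of the Egr1KO and 68.1% of the WT read pairs at 6 h. Mmp10 passed the filter on low counts in 1 comparison of 2 groups, Egr1KO against WT at 6 h, where the log2 fold change of 2.42 did not pass (edgeR exact test, FDR 0.551). In the fit of the 3 genotypes together it rose by 5.45 on the log2 scale (edgeR quasi-likelihood F-test, FDR 0.000201), a fitted value that rests on few read pairs at 0 h. It passed the filter of this fit only through 6 h libraries, where it was high, so this test adds no support to the counts themselves.

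Mmp3 (ENSMUSG00000043613) had 79 read pairs (5.70 CPM) in Egr1KO replicate 2 at 6 h, the library with the most Mmp10. It had 6 in WT replicate 1 at 0 h, 4 in FosBcKO replicate 2 at 6 h and at most 2 in the other 15 libraries. It passed the filter in no comparison and was not tested.

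Mmp12 (ENSMUSG00000049723) had 28, 41 and 51 read pairs in Egr1KO at 6 h, against 0, 5 and 1 at 0 h. In WT it had 2, 0 and 0 read pairs at 0 h and 0, 3 and 3 at 6 h, and in FosBcKO 0, 2 and 0 at 0 h and 3, 23 and 5 at 6 h. Egr1KO at 6 h lay above every other group without overlap, with 3.51 ± 1.12 CPM (SD, n = 3) against 0.892 ± 0.953 CPM in FosBcKO and 0.196 CPM in WT at 6 h. It rose by 4.20 on the log2 scale from 0 h to 6 h in Egr1KO (edgeR quasi-likelihood F-test, FDR 0.0188) and at 6 h it was 4.32 higher on the log2 scale in Egr1KO than in WT, or 17.9-fold in mean CPM (edgeR exact test, FDR 0.000222). The size of these folds rests on few read pairs, 6 in all in Egr1KO at 0 h and 6 in WT at 6 h. Mmp12 passed the filter on low counts in both comparisons only through the Egr1KO libraries at 6 h, where it was high, so that it had to differ there, and the tests add no support to the counts themselves. The first call was lost without Egr1KO 0 h replicate 1 (FDR 0.0519), 0 h replicate 3 (0.0918) or 6 h replicate 3 (0.0761). The second was lost with the quasi-likelihood F-test, which called no gene of the 15618 tested in that comparison (FDR of Mmp12 0.426), and without the WT libraries rich in Krt12 (3.89 on the log2 scale, FDR 0.198). Replicate 2 held 74.2% of the FosBcKO read pairs at 6 h.

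Mmp13 (ENSMUSG00000050578) had 15, 21 and 10 read pairs in Egr1KO at 6 h and 12, 13 and 1 in FosBcKO at 6 h. It had at most 3 in each of the 3 WT libraries at 6 h and in each of the 9 libraries at 0 h. The Egr1KO libraries at 6 h lay above all WT libraries and all 0 h libraries, and the FosBcKO libraries at 6 h split, with replicate 3 at the level of WT. Mmp13 rose over the 3 genotypes together by 2.20 on the log2 scale (edgeR quasi-likelihood F-test, FDR 0.0322), a call that was lost in 15 of 27 alternatives (FDR up to 0.0883). It passed the filter on low counts in this fit only through 6 h libraries, where it was high. The test thus adds no support to the counts themselves.

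Since macrophages are a known source of Mmp12, markers of leukocytes were read in the same libraries. The 7 of 15 listed leukocyte genes that could be paired with an ID (Ptprc, Itgam, Cd68, Adgre1, Lyz2, Csf1r and Laptm5) had a summed level of 26.5 to 47.0 CPM in Egr1KO, 46.1 to 54.0 CPM in FosBcKO and 18.5 to 25.7 CPM in WT at 6 h. At 0 h the sums were 1.42 to 31.4 CPM in WT, 19.5 to 26.2 CPM in Egr1KO and 24.1 to 29.4 CPM in FosBcKO. The sums of both knockouts thus lay above WT at 6 h. FosBcKO, with less Mmp12 than Egr1KO, had leukocyte sums from the top of the Egr1KO range upward. The genes did not move alike. Lyz2 and Csf1r overlapped between Egr1KO and WT at 6 h. Cd68 was not higher in the knockouts. It stood at 8.48, 5.34 and 4.39 CPM in WT at 6 h. In Egr1KO it stood at 1.39, 4.97 and 4.99 CPM, and in FosBcKO at 1.72, 5.18 and 4.64 CPM. Itgam had no read pair in 5 libraries and Adgre1 in 2, all of them at 0 h or in WT at 6 h. The part of leukocytes in the Mmp12 levels was not tested. In bulk RNA of this kind, more cells of a type and more RNA per cell cannot be told apart.

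Among the inhibitors, Timp1 (ENSMUSG00000001131) had levels of 3.73, 1.78 and 2.43 CPM in WT at 0 h and of 6.69, 13.8 and 2.57 CPM at 6 h. In Egr1KO it stood at 0.979, 0.672 and 0.728 CPM at 0 h and at 4.45, 12.2 and 4.05 CPM at 6 h. In FosBcKO it stood at 1.43, 3.01 and 1.26 CPM at 0 h and at 7.73, 10.5 and 6.36 CPM at 6 h. All but 1 of the 9 libraries at 6 h lay above all libraries at 0 h, and the exception was WT replicate 3. Timp1 rose by 3.12 on the log2 scale in Egr1KO (SE 0.56, edgeR quasi-likelihood F-test, FDR 0.00948) and by 2.14 in FosBcKO (SE 0.46, FDR 0.0117). With 12, 7 and 7 read pairs in Egr1KO at 0 h, it passed the filter on low counts there only through the 6 h libraries. The Egr1KO test thus adds no support to the counts themselves. In WT the log2 fold change was 1.47 (SE 0.63, FDR 0.114), and it was 1.91 and past the threshold without WT 6 h replicate 3 (FDR 0.0165). The Egr1KO call was lost without Egr1KO 0 h replicate 3 (FDR 0.0547), and the FosBcKO call without FosBcKO 6 h replicate 2 (0.0523) or, just past the threshold, without 0 h replicate 3. Its rise over the 3 genotypes together was 2.21 on the log2 scale (SE 0.36, FDR 5.13e-05).

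The 2 WT libraries with high Timp1 at 6 h were also the WT libraries rich in Krt12, and without both of them the WT log2 fold change was -0.28. The Egr1KO libraries at 6 h, with at most 3.76 CPM of Krt12, had 4.05 to 12.2 CPM of Timp1. In FosBcKO the rise was 2.54 on the log2 scale (FDR 0.0122) with replicate 2, poor in Krt12, as the only 6 h library. The part of corneal cells in the Timp1 levels was not tested. In the RefSeq table Timp1 lies within Syn1, which encodes the neuronal synapsin I. Syn1 had 31 to 100 read pairs per library at 0 h and 38 to 713 at 6 h. In Egr1KO at 6 h, replicate 2 had the most Syn1 read pairs (308 against 38 and 96) and the most Timp1 read pairs (169 against 45 and 43). In WT at 6 h, replicate 3 had the most Syn1 read pairs (713 against 310 and 251) and the fewest Timp1 read pairs (27 against 71 and 137). The part of Syn1 in the Timp1 counts was not tested. Whether the counting used strand is not given in the sources used here, and without it read pairs from overlapping genes cannot always be told apart.

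Timp2 (ENSMUSG00000017466) had levels of 527, 528 and 506 CPM in WT at 0 h and of 406, 443 and 275 CPM at 6 h. In Egr1KO it stood at 644, 579 and 587 CPM at 0 h and at 456, 371 and 496 CPM at 6 h, and in FosBcKO at 532, 509 and 547 CPM at 0 h and at 327, 372 and 472 CPM at 6 h. Every library at 6 h, at most at 496 CPM, lay below every library at 0 h, the lowest of which had 506 CPM, and at 0 h the Egr1KO libraries lay above those of the other genotypes. The log2 fold change was -0.57 in WT (SE 0.24, FDR 0.114), -0.39 in Egr1KO (SE 0.17, FDR 0.133) and -0.44 in FosBcKO (SE 0.18, FDR 0.0976), and none passed alone. Without both WT libraries rich in Krt12, which leaves replicate 3 alone at 6 h, the WT change was -1.16 and was called (FDR 0.000370). Timp2 fell over the 3 genotypes together by 0.45 on the log2 scale (SE 0.11, FDR 0.00258), which is less than 2-fold.

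Timp3 (ENSMUSG00000020044) had levels of 582, 447 and 736 CPM in WT at 0 h and of 791, 741 and 887 CPM at 6 h. In Egr1KO it stood at 590.0, 715 and 616 CPM at 0 h and at 975, 885 and 802 CPM at 6 h, and in FosBcKO at 721, 665 and 649 CPM at 0 h and at 1522, 1959 and 1089 CPM at 6 h. Every library at 6 h lay above every library at 0 h, and all 3 FosBcKO libraries at 6 h lay above the 6 h libraries of the other genotypes. Timp3 rose by 1.18 on the log2 scale in FosBcKO (SE 0.23, edgeR quasi-likelihood F-test, FDR 0.00933) and by 0.53 in Egr1KO (SE 0.15, FDR 0.0360), the latter under 2-fold. In WT the log2 fold change was 0.35 (SE 0.22, FDR 0.267). The rise over the 3 genotypes together was 0.70 on the log2 scale (SE 0.14, FDR 0.000360), under 2-fold. Without FosBcKO 6 h replicate 2, the library with the most Timp3, the FosBcKO change was 0.85 and no longer above 2-fold.

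The abundant inhibitors were also set against each other within each library. A shift of their ratio can come from either gene alone, so it does not show opposite directions. The ratio of Timp3 to Timp2 read pairs, which does not depend on scaling between libraries, lay at 0 h between 0.847 and 1.45 in WT, between 0.917 and 1.23 in Egr1KO and between 1.19 and 1.36 in FosBcKO. At 6 h it lay between 1.67 and 3.22 in WT, between 1.62 and 2.39 in Egr1KO and between 2.31 and 5.27 in FosBcKO. Its mean at 6 h was 2.28 ± 0.827 in WT, 2.05 ± 0.393 in Egr1KO and 4.08 ± 1.56 in FosBcKO (SD, n = 3 each). The ratio was thus higher in all 9 libraries at 6 h than in any library at 0 h, while FosBcKO overlapped WT at 6 h. It is a description of values already given, with no test of its own. Timp3 lies within Syn3 and Timp2 overlaps Cep295nl in the RefSeq table. These partners had at most 307 and 100 read pairs in any library, against at least 5033 of Timp3 and 2887 of Timp2.

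**Figure D3:**
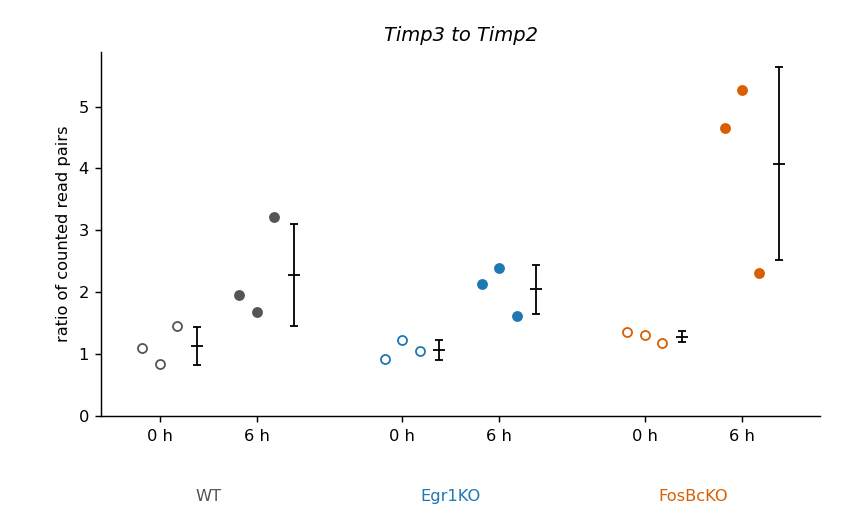
Ratio of Timp3 to Timp2 read pairs within each of the 18 libraries (vertical axis, from 0); open points are 0 h and filled points 6 h PCS, with mean and SD (n = 3) beside them. The 0 h libraries lie between 0.847 and 1.45 and the 6 h libraries between 1.62 and 5.27.

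To place these genes among all others, a gene was counted as called where its FDR did not exceed 0.05 and it changed more than 2-fold. For 6 h against 0 h, 6 of the 10 genes passed the filter on low counts in each genotype. In WT 0 of the 6 were called, where 17.1% of all genes tested were, and Timp1 and Timp2 were 2 of those with an unadjusted p under 0.05, as 41.2% of all genes had. In Egr1KO 3 were called, all higher (Mmp12, Timp1 and Mmp14), against 9.28% of all genes called higher. In FosBcKO 3 were called, all higher (Mmp14, Timp1 and Timp3), against 11.2% of all genes called higher. The median log2 fold change of the genes tested was 0.15 in WT, 0.81 in Egr1KO and 0.66 in FosBcKO, beside -0.02, 0.00 and 0.05 over all genes. Over the 3 genotypes together 9 genes were tested and 5 were called, all higher (Timp1, Mmp10, Mmp12, Mmp9 and Mmp13), where 18.9% of all genes were. Without the fold minimum all 9 were called, 7 higher and 2 lower (Timp2 and Mmp2), where 28.9% of all genes were called higher and 22.6% lower. Genes that pass the filter through the group in which they are high had to differ. Mmp10, Mmp12 and Mmp13 did so through 6 h libraries, and so did Timp1 in Egr1KO. These shares are thus not those of the 10 genes and give no support.

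Separation of the 3 libraries at 6 h from the 3 at 0 h was common among all genes. In WT 28.2% of all genes tested lay higher without overlap and 19.8% lower, in Egr1KO 18.1% and 25.2%, and in FosBcKO 22.8% and 20.1%. Of the 10 genes, Mmp9, Mmp10 and Timp3 did so higher in WT, Mmp9, Mmp12, Mmp13, Mmp14, Timp1 and Timp3 in Egr1KO and Mmp12, Mmp14, Timp1 and Timp3 in FosBcKO, and Timp2 lower in each. Markers of other cell types moved with time as well. The 5 erythroid genes listed had a sum of 0.960 to 74.7 CPM at 0 h and of 77.5 to 332 CPM at 6 h. The 4 endothelial genes had a sum of 3.11 to 15.4 CPM at 0 h and of 10.8 to 121 CPM at 6 h. Sag, the 1 of 4 retinal genes with an ID, stood at 53.8 to 239 CPM at 0 h and at 329 to 2507 CPM at 6 h. Pigment cell genes, 4 of 6 with an ID, had a sum of 14.05 to 94.4 CPM at 0 h and of 35.5 to 355 CPM at 6 h. Other lists fell. The 6 fibroblast and smooth muscle genes with an ID had a sum of 459 to 518 CPM at 0 h and 119 to 219 CPM at 6 h in WT, and of 462 to 520 CPM and 198 to 361 CPM in Egr1KO, without overlap. In FosBcKO their sum was 438 to 582 CPM at 0 h and 299.5 to 534 CPM at 6 h, with overlap. The genes of this list did not move alike. Acta2 was lower at 6 h in each genotype without overlap, whereas Col1a2 in FosBcKO and Myh11 in both knockouts were higher without overlap. The corneal and lens epithelial sums given above were lower at 6 h too, with overlap between the times for the corneal sums in WT and FosBcKO. No defining marker of these lists was at 0 in the 6 h libraries. Krt12, however, had 1 read pair in Egr1KO replicate 2, 1 in Egr1KO replicate 3 and 3 in FosBcKO replicate 2 at 6 h. These counts are at or under the limit that a count of 0 allows. The part of these cell types in the changes of MMPs and TIMPs was not tested.

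Whether loss of either factor changed these genes was examined at each time with the edgeR exact test. At 0 h, 0 of the 5 genes tested in Egr1KO and 0 of the 6 tested in FosBcKO were called against WT, where 0.41% and 0.295% of all genes were called. At an unadjusted p under 0.05 there was 1 in Egr1KO and 0 in FosBcKO, against 6.4% and 5.62% of all genes. It was Timp1, lower in all 3 Egr1KO than in all 3 WT libraries with a log2 fold change of -1.69 (SE 0.61, FDR 0.323), which did not pass. Timp1 passed the filter in this comparison only through the WT libraries, where it was higher. Of all genes, 9.32% were lower in Egr1KO at 0 h without overlap.

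At 6 h PCS, 1 of the 8 genes tested in Egr1KO was called against WT, Mmp12, where 0.461% of all genes were called higher. Mmp12 passed the filter there only through the Egr1KO libraries, where it was high, so this call gives no support. Mmp14 was 0.75 higher on the log2 scale (SE 0.27, unadjusted exact test p = 0.0223, FDR 0.377), Mmp2 had a log2 fold change of -0.96 (SE 0.46, FDR 0.564), Timp3 of 0.36 (FDR 0.734), Timp2 of 0.44 (FDR 0.739), Mmp9 of -1.0 (FDR 0.651) and Timp1 of -0.01 (FDR 1.00), and none passed.

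In FosBcKO at 6 h PCS, 2 of the 6 genes tested were called against WT, both higher, where 4.48% of all genes were called higher. Mmp14 stood at 44.3 ± 7.41 CPM against 12.99 ± 3.94 CPM in WT (SD, n = 3 each), a log2 fold change of 1.90 (SE 0.23, edgeR exact test, FDR 1.16e-09). Timp3 stood at 1523 ± 435 CPM against 806 ± 74.0 CPM, a log2 fold change of 1.06 (SE 0.31, FDR 0.0140). In both, the 3 FosBcKO libraries lay above the 3 WT libraries, as did 9.99% of all genes tested. Mmp9 had a log2 fold change of -1.27 (SE 0.54, FDR 0.228), Mmp2 of 0.41 (FDR 0.777), Timp1 of 0.19 (FDR 0.954) and Timp2 of 0.17 (FDR 0.895). Mmp10, under the filter, had 0, 2 and 1 read pairs in FosBcKO and 14, 47 and 8 in WT.

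The Mmp14 difference between FosBcKO and WT kept its call without any single library, with log2 fold changes of 1.80 to 2.09, and with the quasi-likelihood F-test. Without the 4 libraries rich in Krt12, which leaves 1 library in each of the 2 groups, it was 1.49 with an FDR of 0.455 in a fit of the other 14 libraries. The Timp3 call was lost with the quasi-likelihood F-test (FDR 0.138) and without WT 6 h replicate 1 (FDR 0.121), WT 6 h replicate 2 (0.0745) or FosBcKO 6 h replicate 2 (0.178). Fibroblast and smooth muscle genes, 6 of 9 with an ID and Col1a2, Pdgfra and Acta2 the most abundant of them, had a summed level of 299.5 to 534 CPM in FosBcKO and 119 to 219 CPM in WT at 6 h. Among them, Col1a2 stood at 110 to 136 CPM in FosBcKO against 7.26 to 16.6 CPM in WT, whereas Pdgfra and Acta2 overlapped between these groups. The leukocyte sums given above were also higher in all 3 FosBcKO libraries. Neither list had a defining marker at 0 in FosBcKO at 6 h, and their part in the Mmp14 and Timp3 levels was not tested. The fold changes of the 5 genes measured in every comparison are plotted with their errors.

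**Figure D4:**
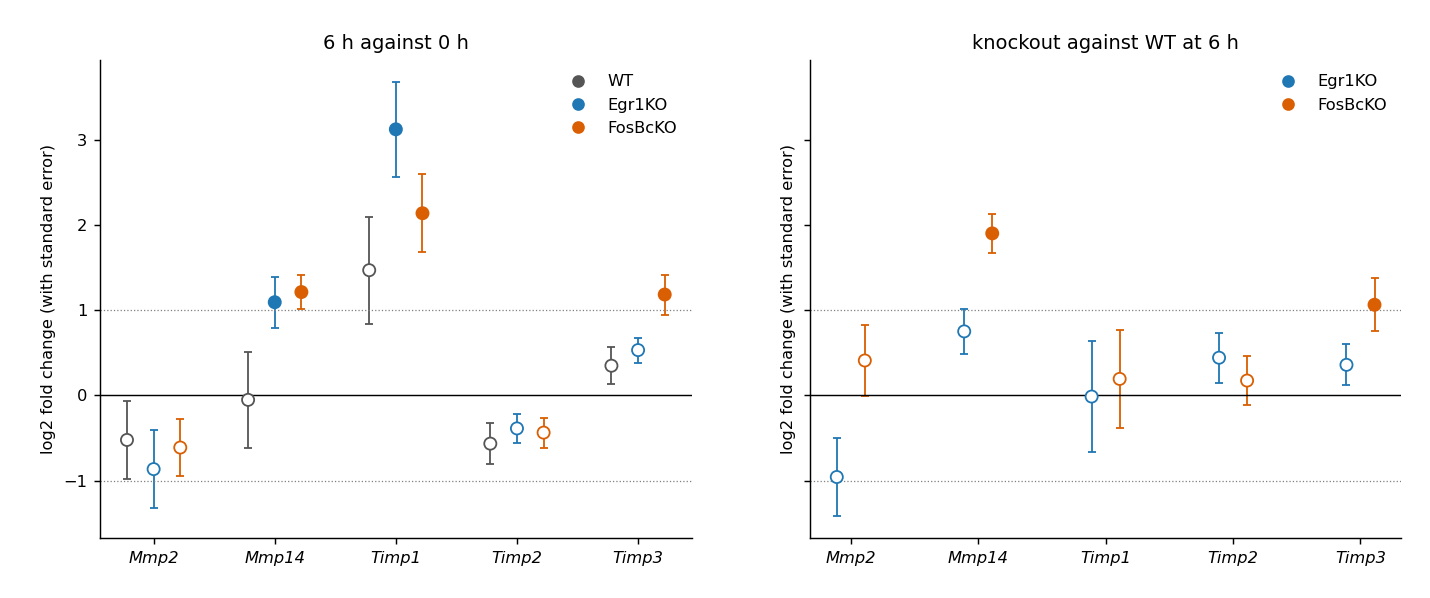
Log2 fold changes (vertical axis) of Mmp2, Mmp14, Timp1, Timp2 and Timp3 with standard errors, for 6 h against 0 h PCS in each genotype (left) and for each knockout against WT at 6 h (right). Filled points passed an FDR of 0.05 with more than 2-fold change, open points did not, and dotted lines mark 2-fold. Mmp14 in FosBcKO stands at 1.21 on the left and 1.90 on the right.

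A call in one genotype and not in another does not show that the responses differ, so the difference itself was tested as an interaction over all 18 libraries. Of 9 genes tested, 0 were called for Egr1KO and 0 for FosBcKO, as were 0 of all 17469 genes by the edgeR quasi-likelihood F-test, while 1141 and 1171 genes had an unadjusted p under 0.05. The response of Timp3 was 0.78 larger on the log2 scale in FosBcKO than in WT (SE 0.30, FDR 0.622), and 1.21 larger without the 4 libraries rich in Krt12 (FDR 0.0840). For Mmp14 the difference was 1.21 in FosBcKO (SE 0.60, FDR 0.746) and 1.13 in Egr1KO (SE 0.61, FDR 0.777), and for Timp1 it was 1.64 in Egr1KO (SE 0.82, FDR 0.772) and 0.61 in FosBcKO (SE 0.79, FDR 0.925). The 6 h to 0 h comparisons of the knockouts and of WT share no library, whereas both knockouts were set against the same WT libraries.

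The genes that act on MMPs were read from lists, with names for only part of them. The names come from supplementary tables of the study that are ordered by significance, so the named part of each list is selected on these data and its shares are not those of the list. Of 15 activators, docking proteins and other inhibitors, 10 had an ID and 9 were tested for 6 h against 0 h. In WT 5 rose, in Egr1KO 5 and in FosBcKO 7, and none fell. Of all genes tested, 13.5% in WT, 9.28% in Egr1KO and 11.2% in FosBcKO were called higher, and 3.65%, 2.69% and 1.9% lower. The urokinase Plau, which makes the plasmin that activates proMMPs, rose from 0.780 ± 0.284 to 11.2 ± 7.71 CPM in WT (SD, n = 3), by 3.71 on the log2 scale (FDR 0.00851), and by 5.90 in Egr1KO (FDR 0.00394) and 4.23 in FosBcKO (FDR 0.00933). Its receptor Plaur, the tissue plasminogen activator Plat and the Mmp-binding thrombospondin Thbs1 rose in all 3 genotypes. Plau and Plaur had mean levels of at most 0.893 CPM at 0 h in each genotype. They passed the filter on low counts only through the 6 h libraries, where they were high, so their tests give no support.

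Beside MMPs, TIMPs inhibit ADAM and ADAMTS proteases, among them Adamts1 and Adamts4, which cut versican and aggrecan. Of 15 ADAM and ADAMTS genes, 12 had an ID. In WT 3 of 11 tested rose and 1 fell, in Egr1KO 3 of 11 rose and in FosBcKO 4 of 12 rose. Called higher were 13.5%, 9.28% and 11.2% of all genes, and 3.65% were called lower in WT. Adamts1 rose from 132 ± 30.9 to 780 ± 139 CPM in WT (SD, n = 3), by 2.47 on the log2 scale (FDR 0.00136), and by 3.5 in Egr1KO (FDR 0.00430) and 2.58 in FosBcKO (FDR 0.00582). Adamts4 rose by 1.60 (FDR 0.00242), 1.83 (FDR 0.000849) and 1.14 (FDR 0.0186). Adamts8 rose by 4.19 in Egr1KO (FDR 0.0189) and 5.56 in FosBcKO (FDR 0.00458), and Adamts6 fell by 1.46 in WT (FDR 0.0256). Adamts8 had means of 0.205 CPM in Egr1KO and 0.173 CPM in FosBcKO at 0 h. It passed the filter on low counts there only through the 6 h libraries, so these tests of Adamts8 give no support. Both lists are plotted by gene.

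**Figure D5:**
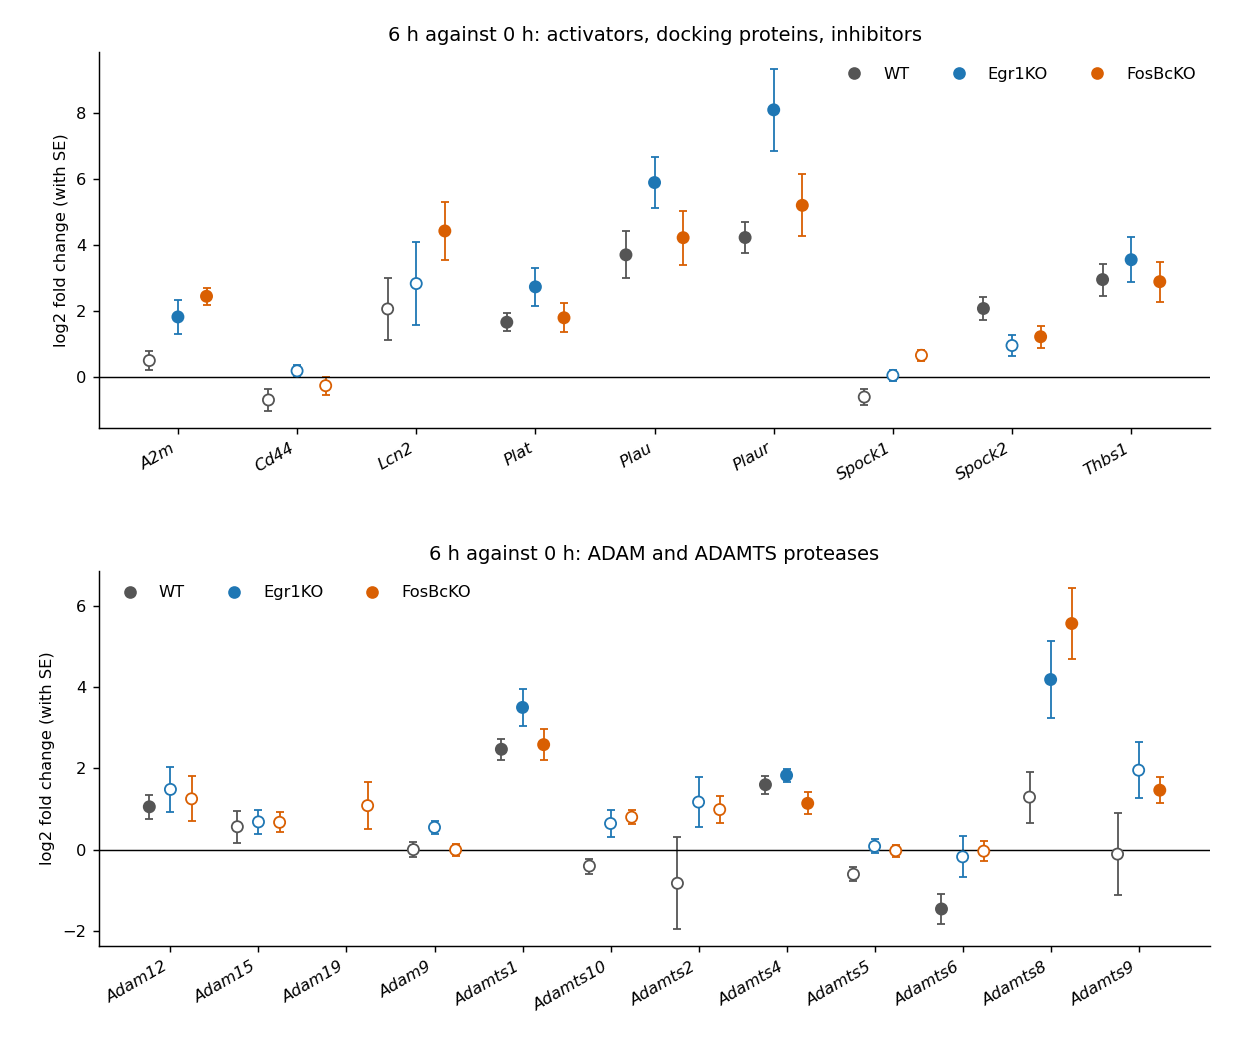
Log2 fold changes with standard errors (vertical axes) for 6 h against 0 h PCS of activators, docking proteins and inhibitors (top) and of ADAM and ADAMTS proteases (bottom) in the 3 genotypes. Filled points passed an FDR of 0.05 with more than 2-fold change and open points did not; Plau, Plaur, Plat, Thbs1, Adamts1 and Adamts4 are filled in all 3 genotypes.

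Of the transcription factors with known sites in MMP and TIMP promoters, all 11 listed were tested, and 10 rose at 6 h in WT, 9 in Egr1KO and 9 in FosBcKO. Of all genes tested, 13.5%, 9.28% and 11.2% were called higher there. The list was chosen with earlier results of these data known, so its share gives no support. Fosb counts rose by 6.21 in WT, 7.91 in Egr1KO and 7.30 in FosBcKO on the log2 scale (FDR 0.00151, 0.00280 and 0.000725). Egr1 is among the genes counted as rising in Egr1KO. Counts of Fosb in FosBcKO and of Egr1 in Egr1KO take in exons outside the deleted or inserted part. They do not show a rise of the intact factor. Of 17 other MMP and TIMP genes listed, 3 had an ID (Mmp11, Mmp15 and Mmp19). Mmp11, stromelysin-3, fell by 1.60 in WT (FDR 0.0298), and the other two did not pass for 6 h against 0 h in any genotype.

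Between FosBcKO and WT at 6 h, genes of these lists were called higher beside Mmp14 and Timp3. They were Mmp15, another membrane-type MMP, with 20.2 ± 1.92 against 10.8 ± 3.19 CPM (SD, n = 3 each, log2 fold change 1.03, edgeR exact test, FDR 0.0196), the lipocalin Lcn2 that binds Mmp9 (2.46, FDR 0.00440), the broad protease inhibitor A2m (2.09, FDR 1.38e-14) and Spock1 (1.78, FDR 6.12e-12). Of the ADAMTS genes, the procollagen protease Adamts2 was 2.41 higher on the log2 scale (FDR 5.03e-05), Adamts5 1.10 (FDR 0.000207), Adamts9 2.49 (FDR 9.37e-05) and Adamts10 1.46 (FDR 5.29e-08), and of the transcription factors Junb was 1.18 higher (FDR 0.0100). None of these lists had a gene called lower there, where 0.929% of all genes were called lower and 4.48% higher. Between Egr1KO and WT at 6 h no gene of the lists was called, where 0.736% of all genes were. At 0 h Plat was lower in Egr1KO by a log2 fold change of -1.45 (FDR 1.25e-06) and Fosl1 by -1.26 (FDR 0.00419).

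The named genes whose group means were most like those of each member were sought over the 6 groups, as the smallest root mean square difference of centred log2(CPM + 0.5) values. For Mmp14 these were the lipid phosphatase Plpp3 with a difference of 0.08, then Cachd1 and Rbm47. Plpp3 had 25.7 and 32.9 CPM in WT at 0 h and 6 h, 21.7 and 52.1 CPM in Egr1KO and 45.8 and 99.2 CPM in FosBcKO. For Timp3 they were Lrrc8a (0.10), Pim3 and Ppt2, for Timp2 Zfp84 (0.03), Gramd4 and Pam, and for Timp1 Phxr4 (0.09) and Gm37084. For Mmp12 they were Ifit1 (0.29), Ifit3 and Mid1, and Ifit1, an interferon-induced gene, had 5.64 and 27.5 CPM in Egr1KO at 0 h and 6 h against 4.98 and 8.79 CPM in WT and 5.87 and 9.56 CPM in FosBcKO. For Mmp13 they were B2m (0.19), Mcam and Parp10, for Mmp2 Mcm6 (0.07) and Gpr157, and for Mmp9 Lyar (0.18), Ammecr1 and Akap1. Mmp10 had no close match, the nearest being Tent5a at 0.51. These are likenesses of 6 group means, each chosen as the best of at least 5456 genes.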

How the data were processed

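Per the labels, libraries were stranded, ribodepleted and read as pairs, and per the study's methods the authors ran Hisat2 for alignment and HTSeq-count (union mode) on Ensembl gene models. The methods name GRCm38 and the submitters' processing notes GRCm39, so no coordinates are given. The deposited files hold whole-number counts of read pairs for each gene ID, not normalized. HTSeq's 5 summary lines were left out, of which the report gives the pairs outside annotated genes. No molecular identifiers were stated, so copies made by PCR count separately.

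Tests used edgeR 4.0.16 in R 4.3.3 on all genes, with filterByExpr, TMM (trimmed mean of M values) scaling and robust dispersions. The quasi-likelihood F-test served 6 h against 0 h, the interactions and the additive fit of genotype and time, and the exact test served knockout against WT, after the tests the study names for its initial and later analyses. FDR is the Benjamini-Hochberg value over all genes tested, and SEs come from the quasi-likelihood fit. The scripts were tested on simulated counts. Alternatives were the other test, DESeq2 1.42.0, RLE size factors, TMM without the 10 most abundant genes, 2 other filters, dispersions without the robust option, 1 fit of all libraries, no fold minimum, a replicate block and leaving out each library. Leaving out libraries rich in Krt12 was chosen after seeing the data.

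Whether 0 h and 6 h libraries of the same number came from the same mice is not given in the sources used here. Deviations of same-numbered libraries correlated at 0.102 to 0.247 in WT, where all 3 pairs passed 0.1 and the numbers were taken to pair the libraries, at 0.0198 to 0.146 in Egr1KO and at 0.0776 to 0.181 in FosBcKO, where all were positive but not all passed. The block changed no call in WT.

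The named genes are all 10 members. IDs of the members come with the series' own selection, and 6380 other symbols were paired by ID columns of the study's supplementary tables; genes without a pair are not analysed here, and 3 further genes, left out of the lists and of the likeness search, are not reported here. The members, gene lists and tests were chosen with earlier results of these data known.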

Additional observations from a re-analysis of the deposited data

How the results depend on the processing

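Of 671 alternative values for single genes and comparisons, 605 kept direction and side of the threshold, 48 lost a call, 8 gained one and 10 changed sign. For 6 h against 0 h in WT, 0 genes were called, 2 without a filter, 1 without both libraries rich in Krt12 (Timp2), and 0 to 2 without single libraries. Mmp14 there changed sign with the replicate block (0.21) and without the Krt12-rich libraries (0.26) and ranged from -0.53 to 0.38 without single libraries, and Timp1 was -0.28 without the Krt12-rich libraries. In Egr1KO, 3 calls became 0 to 4 without single libraries (0 without Egr1KO 0 h replicate 3, and 1 without 0 h replicate 1 or 6 h replicate 3). In FosBcKO, 3 calls became 1 to 3, with 1 left without 6 h replicate 2, and Mmp9, not called, was -0.38 without the Krt12-rich libraries and -0.30 to 0.28 without single libraries. For Egr1KO against WT at 6 h, 1 call became 2 with a filter of 10 counts in 3 libraries (Mmp13 added, which passes it only through the libraries where it is high), 0 with the quasi-likelihood F-test, 0 with the replicate block, 0 in 1 fit of all libraries, 0 without the Krt12-rich libraries, and 1 to 2 without single libraries. For FosBcKO against WT at 6 h, 2 calls became 1 with the quasi-likelihood F-test, 0 with the replicate block, 1 in 1 fit of all libraries, 1 without the Krt12-rich libraries and 1 to 4 without single libraries. Over the 3 genotypes together, 5 calls became 9 without the fold minimum and 3 to 5 without single libraries. The cause was not tested. Both 0 h contrasts and both interactions had 0 calls throughout. Between genotypes the samples share only a number, with 3 of the 12 same-numbered pairs over 0.1, so a call lost under the block there is not read as a weaker effect, and the block changed no other count of calls. Where 1 library was left in a group, it was assumed to vary like the others. Genes with few read pairs (Mmp3, Mmp9, Mmp10, Mmp12 and Mmp13) are limited by depth.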
